A study of Mus musculus with 12 samples.

Results

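The effect of losing Gdown1 in mouse liver that also lacks p53 was compared between a long-standing deletion and a deletion induced 24 hours earlier. The comparison takes 8 of the 12 RNA-seq libraries of the series, all those titled 8W or TAM24h, and forms the contrast (DKO 8W minus p53KO 8W) minus (DKO TAM minus p53KO TAM). Every one of these livers comes from the C57BL/6 background, carries floxed alleles of Gdown1 (the gene Polr2m) and is null for p53. The p53KO 8W group (replicates 1 and 2) has floxed Gdown1 and no named Cre, and the DKO 8W group (replicates 2 and 3) has the Alb-Cre transgene. The DKO TAM group (replicates 1 and 2) has Alb-CreERT2, a Cre that enters the nucleus once tamoxifen is given, and the p53KO TAM group (replicates 1 and 2) had the same treatment with no Cre named in its labels. 8W is read as 8 weeks of age, and the age of the tamoxifen-treated mice is not given in the labels. The study's stated purpose for the tamoxifen arm was the immediate effect of the deletion.

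Gdown1 is a protein that binds a fraction of RNA polymerase II so tightly that it behaves as an extra subunit, and in biochemical assays it blocks the general factor TFIIF until Mediator relieves the block. Hepatocytes devote much of their transcription to a few secreted proteins, with albumin foremost. p53 restrains proliferation, largely through p21 and the repressor complex DREAM. The albumin promoter drives both Cre forms, which places the deletion in hepatocytes and their precursors, and it is already active in the fetal liver. Stellate, endothelial and immune cells lie outside that lineage.

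In what follows the late effect is the log2 difference DKO 8W minus p53KO 8W, the early effect is DKO TAM minus p53KO TAM, and the late minus early difference is the first less the second. No library is shared by the late and the early effect. Levels are CPM, counts divided by the scaled library size and multiplied up to a common total, errors are standard errors (SE) of the log2 value with 2 libraries a group, and adjusted p-values come from edgeR's quasi-likelihood test over 13693 genes with Benjamini-Hochberg adjustment. A gene called at an adjusted p under 0.05 is said to have risen or fallen. The titles give each tamoxifen library a number of its own, but no label says what it stands for or that the 2 libraries of a group came from separate animals. The p-values therefore measure only the spread between these libraries, which may be technical. The Cre form, the tamoxifen and the experiment go with the early or late arm as a whole and cannot be told apart from the age of the deletion. In bulk tissue, fewer cells of a type and less RNA per cell cannot be told apart either.

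The 8 libraries held between 5618489 and 8776369 counts in genes, so that 3 counts correspond to between 0.254 and 0.643 CPM. Albumin took 5.90% and 5.95% of all counts in p53KO 8W and 2.21% and 2.71% in DKO 8W, and 6.27% and 6.19% in p53KO TAM and 1.93% and 1.80% in DKO TAM. The TMM scaling factors were 0.826 and 0.830 in p53KO 8W against 1.41 and 1.41 in DKO 8W, and 0.867 and 0.849 in p53KO TAM against 1.09 and 1.09 in DKO TAM. With no composition factor, by library totals alone, the median over all genes went from 0.01 to 0.78 for the late effect, from 0.01 to 0.36 for the early effect and from -0.03 to 0.38 for the difference. Changes are given relative to the TMM scaling, and the other scaling is named for many of the directions and calls that depend on it. A count or call given without it may still depend on the scaling. The hepatocyte markers Alb, Apoa1 and Cps1 were detected at over 100 CPM in all 8 libraries. Xist, the X-inactivation RNA, was at 6.45 CPM in DKO TAM replicate 1 and at most 1.78 CPM in the other 7 libraries, while the Y-linked genes Ddx3y and Uty were present in all 8.

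Polr2m itself was at 89.1 and 103 CPM in p53KO 8W and 58.1 and 60.0 CPM in DKO 8W. It was at 75.9 and 78.7 CPM in p53KO TAM and 65.9 and 54.6 CPM in DKO TAM. The deleted libraries were lower in both arms, without overlap. The late effect was -0.70 ± 0.13 (adjusted p = 0.00024), and the early effect of -0.36 ± 0.13 missed the threshold (adjusted p = 0.063), though not without DKO TAM replicate 1 (-0.50, adjusted p = 0.04). With library totals alone the late value was 0.07 (adjusted p = 0.65). Reads were counted over all of Polr2m (chr9:71478437-71485983, GRCm38, minus strand), not over its floxed part, so they do not measure how complete the deletion was. Trp53 still had counts in the p53-null livers, and the counts per gene do not show from which part of it. It was at 3.07 and 2.79 against 8.39 and 8.13 CPM in the late arm and at 3.79 and 3.97 against 8.96 and 10 CPM in the early arm, beside 13.1 and 7.95 CPM in the floxed 7-week livers with intact p53. Trp53 was higher in the deleted livers of both arms by 1.48 ± 0.29 (adjusted p = 0.0005) and 1.29 ± 0.28 (adjusted p = 0.0039). The early call was lost without p53KO TAM replicate 1 (1.25, adjusted p = 0.052).

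The long-standing deletion changed far more genes than the recent one, and most genes that moved early also moved late, as did 51.4% of all genes. In the late effect 3516 genes (25.7% of those tested) were higher and 3525 (25.7%) lower, 51.4% in all. In the early effect 1179 (8.61%) were higher and 1380 (10.1%) lower, 18.7% in all. The late minus early difference was called for 3782 genes (27.6%), with 1831 (13.4%) higher and 1951 (14.2%) lower. Of the 2559 early calls, 68.7% were also called late, against 51.4% of all genes. Of the 7041 late calls, 25% were also called early, against 18.7% of all genes. Of the 1757 genes called in both (12.8%), 88.4% moved the same way. The early counts depended on single tamoxifen libraries, with 468 higher and 720 lower calls without p53KO TAM replicate 1, 592 and 864 without p53KO TAM replicate 2, and 641 and 797 without DKO TAM replicate 2. The split of the late calls depended on the scaling, with 8823 higher and 959 lower calls for library totals alone, and for the early effect 4346 and 586.

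With 2 libraries a group, control and deleted libraries did not overlap for 77.0% of all genes late and 59.5% early, so a lack of overlap alone says little. The genes were then sorted by their calls. Shared genes, called in both effects with the same sign, numbered 609 higher (4.45%) and 944 lower (6.89%). Late-only genes were called late, not called early and called in the difference, and numbered 1374 higher (10%) and 1266 lower (9.25%). Early-only genes, defined the other way round, numbered 175 higher (1.28%) and 141 lower (1.03%). A further 97 genes (0.708%) rose early and fell late, and 107 (0.781%) fell early and rose late, each with a called difference. Another 3130 genes (22.9%) were called in 1 effect with no call for the difference, so they belong to neither side, and 5850 (42.7%) were called in none. Among shared genes the late effect was the larger one for 118 that rose (0.862%) and 318 that fell (2.32%) and the smaller one for 11 (0.0803%) and 14 (0.102%). The 2 effects could not be told apart for 480 rises (3.51%) and 612 falls (4.47%), 1092 in all, of which 655 had a 95% interval of the difference within 2-fold either way.

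**Figure D1:**
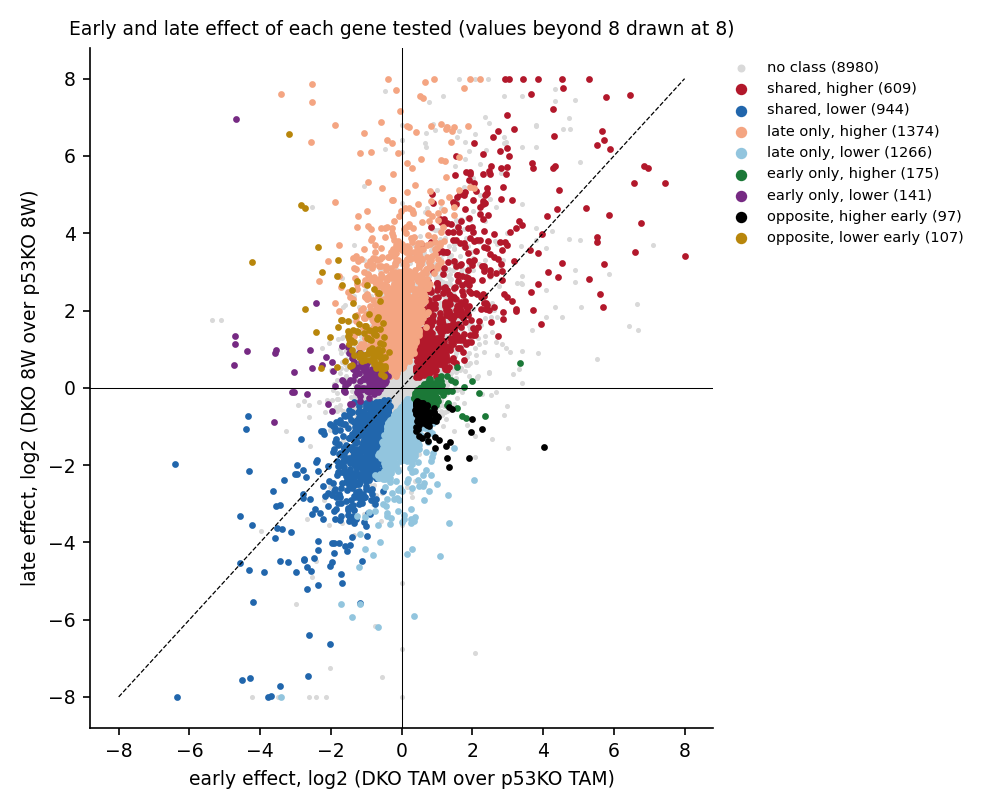
Early effect (x axis, log2 of DKO TAM over p53KO TAM) and late effect (y axis, log2 of DKO 8W over p53KO 8W) of each of the 13693 genes tested, coloured by class, with values beyond 8 drawn at 8 and the dashed line marking equal effects. Late-only genes lie above and below the middle of the x axis, and shared genes spread along the dashed line, mostly at late values at least as far from 0 as the early ones.

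Cell cycle genes differed widely between the arms, and their promoters show which sequences they have in common. Genes of mitosis are commonly held down by DREAM at a CHR element, with CCAAT boxes nearby that bind NF-Y, whereas genes of DNA replication usually carry E2F sites. The bases before the transcription start are printed for 3 mitotic genes and 1 replication gene, chosen because they span the patterns found. They are Top2a (topoisomerase II alpha, which untangles sister chromatids), Kif11 (the kinesin that separates spindle poles), Smc2 (a condensin subunit) and Mcm6 (a subunit of the replicative helicase). The 180 bases are from RefSeq GRCm38.p6, 5′ to 3′ on the gene's strand, with matches on either strand in capitals. The CCAAT box was searched as CCAAT. The CHR-like element was searched as TTTGAA or, in a second form, as TTCGAA. The E2F-like element was searched in 3 forms, of which the first was TTTCGCG, the next was TTTGGCG and the last was TTTCCCG. Top2a is at chr11:99024190-99024369 (minus strand), Kif11 at chr19:37376202-37376381 (plus), Smc2 at chr4:52439041-52439220 (plus) and Mcm6 at chr1:128359706-128359885 (minus).
Top2a: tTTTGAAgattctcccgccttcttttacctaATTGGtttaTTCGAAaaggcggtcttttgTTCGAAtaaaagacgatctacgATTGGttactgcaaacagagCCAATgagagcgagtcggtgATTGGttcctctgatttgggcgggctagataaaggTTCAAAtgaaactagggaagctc
Kif11: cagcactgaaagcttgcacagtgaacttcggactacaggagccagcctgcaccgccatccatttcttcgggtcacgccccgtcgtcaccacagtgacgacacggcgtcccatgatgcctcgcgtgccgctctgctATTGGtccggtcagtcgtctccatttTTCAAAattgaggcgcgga
Smc2: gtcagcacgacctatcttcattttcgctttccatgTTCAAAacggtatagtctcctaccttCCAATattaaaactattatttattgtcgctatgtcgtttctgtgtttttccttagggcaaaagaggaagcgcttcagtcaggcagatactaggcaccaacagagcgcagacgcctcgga
Mcm6: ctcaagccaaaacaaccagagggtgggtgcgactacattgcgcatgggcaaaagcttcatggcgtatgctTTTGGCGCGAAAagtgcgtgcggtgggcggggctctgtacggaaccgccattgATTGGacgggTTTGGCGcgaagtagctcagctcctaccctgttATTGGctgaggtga

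The Top2a stretch holds 4 CCAAT and 4 CHR-like matches, overlapping ones included, and those of Kif11 and Smc2 hold 1 of each. The Mcm6 stretch holds 2 CCAAT and 3 E2F-like matches and no CHR-like one. Promoter windows from 250 bases before to 50 after the start were found for 32 of the 40 genes on the mitosis list, in 34 windows. A CCAAT box occurred in 79.4% of these, a CHR-like match in 76.5%, both in 70.6% and an E2F-like match in 14.7%. In the 40 windows of 32 genes on the DNA replication list the shares were 60%, 20%, 17.5% and 45%. Among 13373 windows of all tested genes that had one they were 37.6%, 14.3%, 5.79% and 9.06%. A match describes letters in the window and not a bound site.

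All 40 mitosis genes rose in the late arm and 26 of 40 in the early arm, while on the replication list 34 of 40 rose late and 3 early. The mitosis list had a median log2 value of 4.82 late and 1.73 early, beside 0.01 and 0.01 over all genes. The difference was called higher for 35 of 40 (median 3.03). Of these genes, 22 were shared genes with a larger late effect, and 13 were late-only genes. Library totals alone gave 37 early rises and 3 late-only genes, with 37 called differences. Leaving out single libraries moved the early count between 19 and 28 and the count for the difference between 23 (without p53KO TAM replicate 1) and 37. The replication list had medians of 1.72 late and 0.19 early, with a called difference for 26 and 22 late-only genes. Its 2 early falls and its 3 early rises compare with early backgrounds of 10.1% and 8.61%. Replication-dependent histones, made in S phase, rose late for 15 of the 21 tested (median 2.26) and early for 2 (median 0.08). The difference was called for 7, and for fewer without either p53KO TAM library or DKO TAM replicate 1. The summed histone level was 121 and 62.0 CPM in p53KO 8W and 149 and 168 CPM in DKO 8W. Some members had very few control counts, such as Hist1h3c with 87 counts in DKO 8W against 1 in p53KO 8W.

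Top2a was at 6.32 and 6.43 CPM in p53KO 8W and 212 and 198 CPM in DKO 8W. It was at 9.76 and 7.10 CPM in p53KO TAM and 15.8 and 15.3 CPM in DKO TAM. The deleted livers were higher in both arms without overlap, and the late ones stood far above every other library. The late effect was 5.0 ± 0.20 (adjusted p = 8e-11), the early one 0.86 ± 0.20 (adjusted p = 0.0076) and the difference 4.14 ± 0.29 (adjusted p = 6.1e-07). The early call was lost without p53KO TAM replicate 2 (0.67, adjusted p = 0.086). Kif11 went from 5.63 and 6.22 to 119 and 115 CPM late and from 5.54 and 7.10 to 12.6 and 14.1 CPM early. Its difference was 3.20 ± 0.28 (adjusted p = 1.6e-06). Neither gene differed between the 2 control groups by the same test, with TAM minus 8W values of 0.43 (adjusted p = 0.27) and 0.08 (adjusted p = 0.89).

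The condensin genes rose late, and their early values missed the threshold. Smc2 was at 17.9 and 12.9 against 120.2 and 110.3 CPM late, and at 14.0 and 15.0 against 17.6 and 24.5 CPM early. Its late effect of 2.89 ± 0.18 exceeded the early 0.54 ± 0.19 (adjusted p = 0.06) by 2.35 ± 0.26 (adjusted p = 1.5e-05), although the early value was called under 6 alternatives, among them library totals alone (0.88). Smc4, the partner of Smc2, was at 75.3 and 62.6 against 241 and 233 CPM late and at 52.7 and 66.0 against 73.2 and 74.8 CPM early, a difference of 1.46 ± 0.19 (adjusted p = 5.5e-05).

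Few replication genes were called 24 hours after tamoxifen. The 3 early rises became 9 (median 0.53) with library totals alone, 1 without p53KO TAM replicate 2 and 0 without p53KO TAM replicate 1 or DKO TAM replicate 2. Mcm6 was at 4.95 and 6.65 against 35.1 and 33.5 CPM late and at 11.4 and 7.93 against 8.96 and 10.1 CPM early. The early groups overlapped, with an early effect of -0.04 ± 0.24 and a difference of 2.62 ± 0.34 (adjusted p = 5.4e-05). Rrm2, the regulated subunit of ribonucleotide reductase, was at 2.05 and 3.43 against 33.7 and 35.9 CPM late and at 2.62 and 1.46 against 1.25 and 1.25 CPM early. Its difference was 4.45 ± 0.52 (adjusted p = 2.1e-05). Uhrf1, which maintains DNA methylation behind the fork, had a difference of 4.06 ± 0.59 (adjusted p = 0.00013) and an early effect of 0.12 ± 0.40. Pcna, the sliding clamp, had one of 1.27 ± 0.19 (adjusted p = 0.00018) with an early effect of 0.34 ± 0.14 (adjusted p = 0.094).

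**Figure D2:**
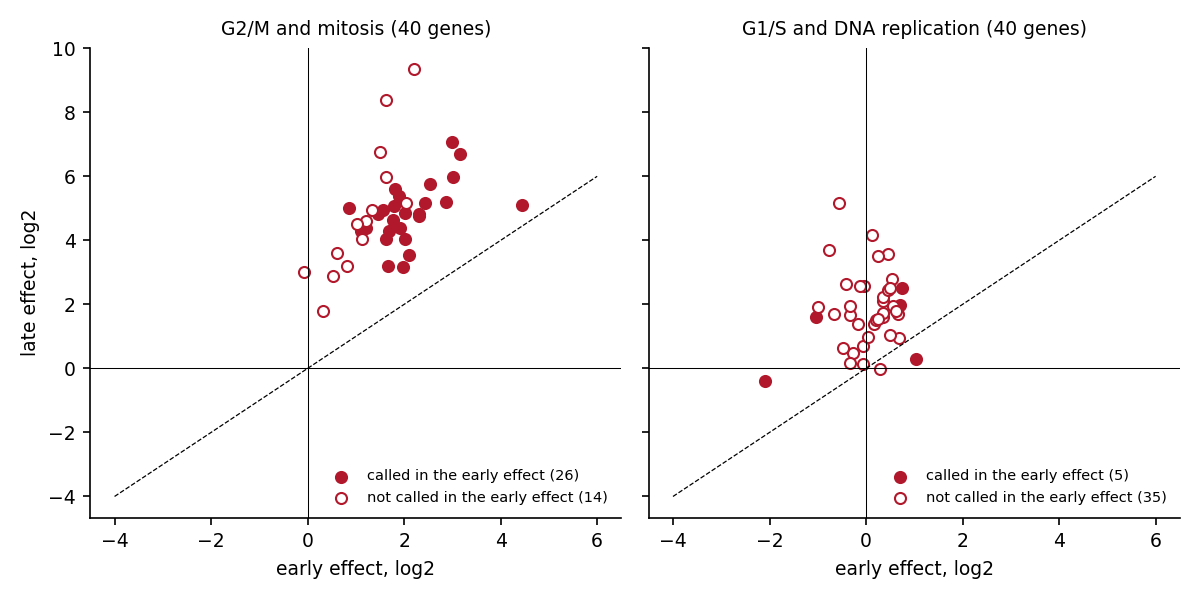
Early effect (x axis, log2) against late effect (y axis, log2) for the 40 mitosis and 40 DNA replication genes, filled where the early effect was called (26 and 5) and open where it was not, with the dashed line marking equal effects. The mitosis genes reach high late values with early values mostly above 0, and the replication genes gather around an early value of 0.

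The products that hepatocytes secrete fell in both arms, and for albumin the amounts could not be told apart. Alb was at 71560 and 71740 against 15740 and 19210 CPM in the late arm and at 72370 and 72970 against 17620 and 16500 CPM in the early arm. The deleted groups did not overlap their controls and lay side by side in the 2 arms on the TMM scale. As a share of all counts, Alb was at 2.21% and 2.71% in DKO 8W and 1.93% and 1.80% in DKO TAM. The late effect was -2.04 ± 0.18 and the early one -2.09 ± 0.18, and their difference of 0.06 had a 95% interval from -0.46 to 0.57 (adjusted p = 0.89). Over the plasma protein list, 52 of 54 genes fell late and 37 fell early, with medians of -1.51 and -0.70. The 37 that fell early also fell late, against 6.89% of all genes, and 27 of them fell further late. Another 11 were late-only falls, and 2 rose early and fell late. With library totals alone the counts were 42 late and 24 early falls.

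The complement and protease inhibitor genes show how far apart the arms could be. Serpina1e, an alpha-1-antitrypsin gene with near-identical neighbours between which reads may be split, was at 6760 and 7516 against 25.9 and 42.5 CPM late and at 8690 and 10830 against 779 and 1032 CPM early. Its late effect of -7.71 ± 0.29 exceeded the early -3.43 ± 0.23 by -4.28 ± 0.32 (adjusted p = 7e-07). C8b, a chain of the complement membrane attack complex, was at 1125 and 1125 against 125 and 108 CPM late and at 977 and 1097 against 576 and 535 CPM early. The groups were separate in both arms, with effects of -3.27 ± 0.15 and -0.90 ± 0.14 and a difference of -2.37 ± 0.20 (adjusted p = 1.4e-06). Fetub, a fetuin that inhibits proteases, had effects of -2.99 ± 0.14 and -1.12 ± 0.13. Serpina3k, another secreted serpin, had -4.22 ± 0.20 and -1.54 ± 0.18. C8b and Fetub were among the 32 plasma protein genes whose 2 control groups did not differ by the test.

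Amino acid catabolism and the urea cycle, core tasks of the hepatocyte, fell for 42 of 43 genes late and 24 early (medians -1.80 and -0.67). All 24 early falls were shared falls, 9 of them deeper late, and 15 genes were late-only falls. With library totals alone 30 fell and 1 rose late, and 21 fell and 4 rose early. Ahcy, which hydrolyses S-adenosylhomocysteine, was at 253 and 261 against 36.0 and 36.1 CPM late and at 266 and 279.6 against 113 and 107 CPM early, a difference of -1.52 ± 0.19 (adjusted p = 4e-05). Haao, of tryptophan breakdown, fell by 2.83 late and 1.02 early (difference -1.81 ± 0.18, adjusted p = 6e-06). Mat1a, the liver's S-adenosylmethionine synthetase, was at 1920 and 2016 against 716 and 605 CPM late and at 2807 and 2775 against 3608 and 3750 CPM early. It was lower in the late deleted livers and above its control in both early ones, with effects of -1.58 ± 0.19 and 0.40 ± 0.18 (adjusted p = 0.14) and a difference of -1.97 ± 0.26 (adjusted p = 5.9e-05).

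Bile acid and drug-handling genes fell in both arms, more of them late. On the bile acid list 21 of 24 fell late and 10 early (medians -2.13 and -0.65), and 18 had a called difference, all lower. Library totals alone gave 15 late and 7 early falls there, beside 2 late and 5 early rises. On the drug metabolism list 31 of 42 fell late and 24 early (medians -1.89 and -1.01). By totals alone 25 fell and 7 rose late, and 20 fell and 4 rose early. Cyp2e1, the ethanol-inducible cytochrome P450, was at 6370 and 6312 against 633 and 469 CPM late and at 2643 and 3460 against 2687 and 2152 CPM early. The early groups overlapped, and the difference was -3.19 ± 0.30 (adjusted p = 3.6e-06). Its control level was itself lower in p53KO TAM than in p53KO 8W, by -1.05 (adjusted p = 0.0024). Slco1b2, a bile acid uptake transporter, had -3.00 ± 0.21 late and -0.52 ± 0.19 early (adjusted p = 0.069), the latter called under 4 alternatives, DESeq2 among them (-0.52, adjusted p = 0.043). Cyp2j5, an epoxygenase with no control difference by the test (-0.18), fell by 3.11 late and 1.52 early.

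Liver-enriched transcription factors fell late and showed few early calls. Of 30 on the list, 19 fell late and 3 early, with medians of -0.71 and -0.17, and 11 were late-only falls against 9.25% of all genes. Library totals alone gave 7 late falls and 5 late rises, with a median of 0.05, and 7 early rises and 1 fall, with a median of 0.18. Cebpa, a factor of hepatocyte differentiation, was at 231 and 198 against 68.8 and 48.2 CPM late and at 151 and 136 against 113 and 109 CPM early. Its late effect was -1.88 ± 0.17, its early one -0.37 ± 0.17 (adjusted p = 0.15) and the difference -1.51 ± 0.24 (adjusted p = 0.00031). Nr1h4, the bile acid receptor FXR, was at 178 and 165 against 86.6 and 68.3 CPM late and at 133 and 132 against 134 and 167 CPM early, where the deleted livers were not below their controls (difference -1.33 ± 0.20, adjusted p = 0.00016). Nr1i3, the xenobiotic receptor CAR, and Foxa1, a pioneer factor, had differences of -1.47 ± 0.24 and -1.27 ± 0.23. The 4 values kept their sign and their call under every alternative run for the difference.

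**Figure D3:**
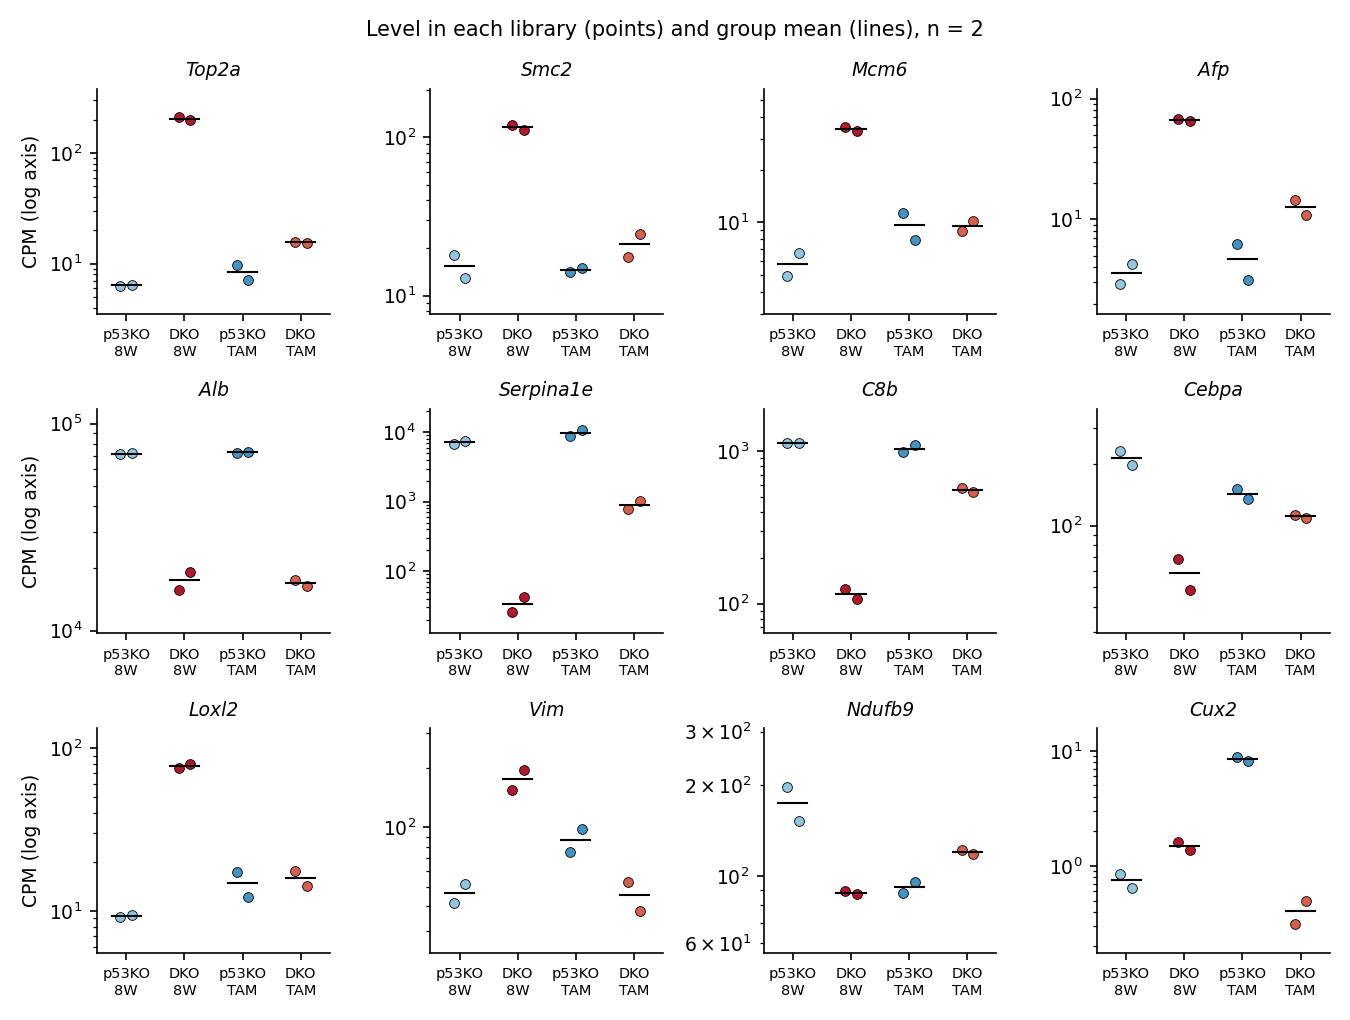
Level of 12 genes in each of the 8 libraries (CPM, log axis), in the groups p53KO 8W, DKO 8W, p53KO TAM and DKO TAM with 2 libraries each and a line at the group mean. Top2a is between 198 and 212 CPM in DKO 8W and under 16 CPM elsewhere, while Alb is between 15740 and 19210 CPM in both deleted groups.

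Genes of energy metabolism diverged between the arms. Nuclear genes of oxidative phosphorylation fell late for 27 of 40 (median -0.54) and rose early for 12 of 40 (median 0.32), and 29 had a lower late minus early value. By class, 18 were late-only falls, 5 early-only rises and 6 rose early and fell late. With library totals alone the late median turned to 0.23, with 10 rises and 2 falls, the early effect had 32 rises, and 12 genes had a lower difference (median -0.42). Leaving out 1 tamoxifen library left 4 early rises without either p53KO TAM library, 6 without DKO TAM replicate 1 and 8 without DKO TAM replicate 2. The same list was lower in p53KO TAM than in p53KO 8W for 19 of 40 genes, against a background of 8.22%, and its part in the result was not tested. Of the 21 genes with no such control difference, 11 had a called difference, all lower.

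Ndufb9, a subunit of complex I, was at 197 and 152 against 89.3 and 87.2 CPM late and at 87.8 and 95.6 against 122 and 118 CPM early. The early deleted livers were above their controls and the late ones below theirs, without overlap. The late effect was -0.99 ± 0.13 (by totals alone -0.22 at an adjusted p of 0.13), the early one 0.39 ± 0.14 (adjusted p = 0.054), and the difference -1.38 ± 0.19 (adjusted p = 8.7e-05). Sdha, the catalytic subunit of complex II, had -0.96 ± 0.14 late (-0.19 with library totals alone, adjusted p = 0.22) and 0.30 ± 0.14 early. Acat1, the mitochondrial acetoacetyl-CoA thiolase, was at 386 and 275 against 158 and 176 CPM late and at 337 and 329.7 against 572 and 566 CPM early. It fell late by 0.98 and rose early by 0.77 ± 0.15 (adjusted p = 0.0019), with a difference of -1.75 ± 0.21 (adjusted p = 2.8e-05) and a control difference of 0.01. The late fall of Acat1 was -0.21 with library totals alone (adjusted p = 0.19).

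Fatty acid oxidation and ketogenesis were mixed, with 10 of 40 higher and 20 lower late and 8 higher and 4 lower early. Library totals alone gave 19 higher and 9 lower late. Acot2, a mitochondrial thioesterase, rose in both arms. It was at 5.80 and 6.22 against 69.8 and 85.4 CPM late and at 10.3 and 5.22 against 70.8 and 56.8 CPM early, with effects of 3.69 ± 0.26 and 2.98 ± 0.25 and an interval of the difference from -0.11 to 1.52. On the glucose and glycogen list 25 of 27 fell late and 8 early. With library totals alone 15 fell and 4 rose late, and 4 fell and 3 rose early. Gys2, the liver glycogen synthase, had a difference of -2.46 ± 0.24, beside a control difference of -1.79.

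Markers of several liver cell types other than hepatocytes rose in the late arm. Stellate cell and fibroblast markers rose for 24 of 26 late (median 1.81) and for 1 of 26 early, where 4 fell (median -0.23, or 0.11 with library totals alone). The difference was higher for 22. Their summed level was 600 and 626 CPM in p53KO 8W, 2293 and 2477 in DKO 8W, 868 and 932 in p53KO TAM, and 994 and 702 in DKO TAM. Macrophage and monocyte markers rose for 21 of 23 late (median 1.64) and 4 of 23 early (median 0.31), although library totals alone gave 15 early rises. Their summed level was 907 and 844, then 2233 and 2361, then 1183 and 1079, then 1377 and 1394 CPM in the same order. Cholangiocyte markers rose for 10 of 12 late and 1 early. Their difference was called higher for 3, while 6 were called in 1 effect with no call for the difference. Their summed level went from 77.3 and 77.0 to 363 and 400.2 CPM late and from 81.0 and 63.5 to 83.2 and 101 CPM early. Among defining markers, Trem2 was at 0 in both p53KO 8W libraries and Mmp7 at 0 in all 4 control libraries. Endothelial markers were mixed, with 4 of 22 higher and 7 lower late and 8 lower early. Library totals alone turned these into 15 higher and none lower late (median 0.82) and 2 higher and 3 lower early, and the early falls numbered 4 without p53KO TAM replicate 1 and 5 without DKO TAM replicate 2. Whether these cells had a part in the other late changes was not tested.

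Loxl2, a collagen cross-linking enzyme, was at 9.22 and 9.44 against 76.0 and 79.6 CPM late and at 17.3 and 12.1 against 17.6 and 14.3 CPM early. It was high in DKO 8W alone, with a difference of 2.96 ± 0.31 (adjusted p = 9.1e-06). Col5a2, a fibrillar collagen, was at 7.17 and 6.43 against 43.6 and 53.5 CPM late and at 12.2 and 15.2 against 10.9 and 9.51 CPM early, a difference of 3.23 ± 0.30. Vim, the intermediate filament of mesenchymal cells, was at 41.5 and 51.7 against 155 and 195 CPM late and at 75.2 and 98.1 against 53.3 and 38.0 CPM early. Vim thus rose late by 1.91 ± 0.18 and fell early by 0.91 (adjusted p = 0.0028), with a difference of 2.83 ± 0.26. Of the 26 stellate genes, 7 were also higher in p53KO TAM than in p53KO 8W, against a background of 7.55%, Col5a2 (0.99) and Vim (0.89) among them. Of the 19 without a called control difference, 15 had a called late minus early rise.

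Among macrophage genes, Ctss, a lysosomal protease, was at 103 and 98.2 against 364 and 388 CPM late and at 151 and 150.3 against 189 and 199.9 CPM early (difference 1.54 ± 0.20, adjusted p = 6.3e-05). Lyz2, lysozyme, had a difference of 1.78 ± 0.25 with an early effect of -0.22 ± 0.18. Cd163, a scavenger receptor of resident macrophages singled out after its values were seen, did the reverse. It was at 28.3 and 22.7 against 18.1 and 21.1 CPM late and at 16.2 and 13.8 against 36.4 and 38.2 CPM early. It rose early by 1.30 ± 0.22 (adjusted p = 0.00085), its late effect was -0.39 ± 0.22 (adjusted p = 0.14), and it was the one marker of the 23 with a lower difference (-1.69 ± 0.31, adjusted p = 0.00095).

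Genes of the fetal liver and of liver tumours, a list whose members were partly known to move here, rose for 20 of 23 late (median 2.47) and 5 early (median 0.16). The difference was higher for 14. Of the 23, 7 were also higher in p53KO TAM than in p53KO 8W, against a background of 7.55%. Among the 16 without a called control difference, 8 had a called late minus early rise. Afp, the fetal counterpart of albumin, was at 2.90 and 4.29 against 68.5 and 65.2 CPM late and at 6.26 and 3.13 against 14.6 and 10.9 CPM early. It rose in both arms, by 4.24 ± 0.26 and 1.38 ± 0.26, with a difference of 2.85 ± 0.40 (adjusted p = 9.4e-05). Pkm, the pyruvate kinase of proliferating cells, was at 10.6 and 9.87 against 52.6 and 60.9 CPM late and at 21.7 and 18.2 against 22.3 and 16.1 CPM early, a difference of 2.52 ± 0.28. Anxa2, a membrane-binding protein, had a difference of 3.19 ± 0.39. The imprinted neighbours Igf2 and H19, silenced after birth in liver and chosen after their values were seen, stayed low early. Igf2 was at 0.683 and 1.5 against 84.5 and 59.0 CPM late and at 1.17 and 4.80 against 2.81 and 2.25 CPM early. H19 was at 0.512 and 0.429 against 447 and 544 CPM late and at 6.12 and 19.6 against 9.06 and 9.51 CPM early. Both were high in the 2 DKO 8W libraries and overlapped between the early groups, with differences of 6.16 ± 0.78 (adjusted p = 0.00016) and 10.37 ± 1.35 (adjusted p = 0.0021). H19 was also higher in both p53KO TAM libraries than in either p53KO 8W library, and that gap enters its difference. Mmp12, a macrophage elastase with a control difference of 3.02 (adjusted p = 0.0021), was among the late-only rises with the largest difference. It was at 0.171 and 1.07 against 134 and 151 CPM late and at 5.25 and 4.18 against 9.79 and 5.13 CPM early, with a difference of 7.25 ± 0.56 (adjusted p = 1.4e-06).

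**Figure D4:**
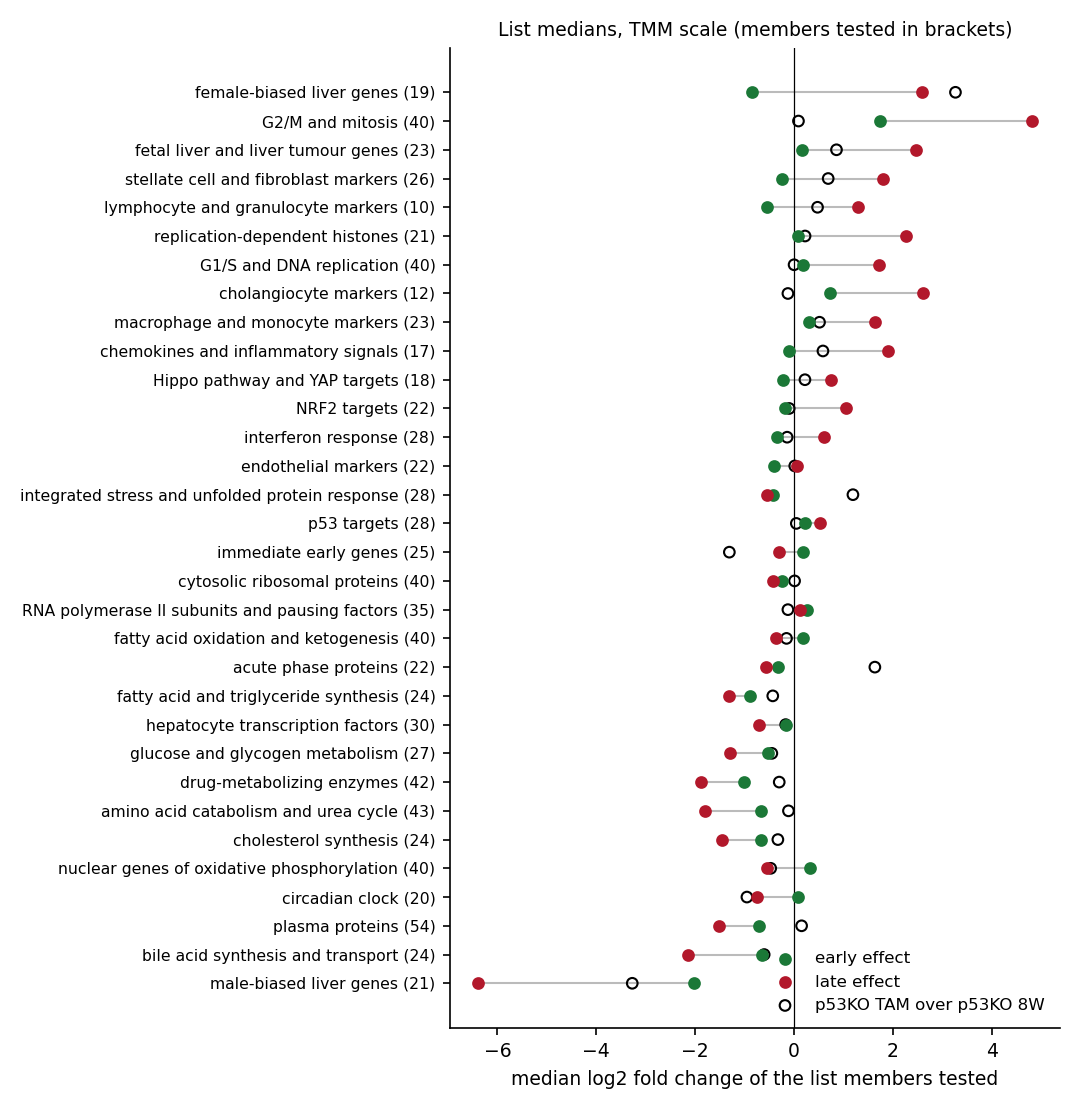
Median log2 early effect (green), late effect (red) and control difference p53KO TAM minus p53KO 8W (open circles) of the 32 gene lists with at least 10 tested members, sorted by the median late minus early value. The mitosis list has medians of 4.82 late and 1.73 early. With library totals alone the late medians of oxidative phosphorylation (-0.54, then 0.23), liver transcription factors (0.05), fatty acid oxidation (0.40), ribosomal proteins (0.34), stress response (0.23), clock (0.03), acute phase (0.20) and immediate early genes (0.46) change sign. So do the early medians of the stellate (0.11), inflammatory (0.25), NRF2 (0.17), liver transcription factor (0.18), ribosomal (0.12), YAP (0.13), acute phase (0.03) and interferon (0.00) lists.

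RNA polymerase II genes moved little as a list on the TMM scale, and the gene of the largest subunit moved in both arms. Of 35 genes for subunits and pausing factors, 6 rose and 6 fell late and 7 rose and 1 fell early. With library totals alone 28 rose and 1 fell late, and 22 rose and 1 fell early. Polr2a, the catalytic subunit, was at 113 and 119.9 against 297 and 313 CPM late and at 95 and 109 against 347 and 346 CPM early. It was higher in both deleted groups, by 1.39 ± 0.12 and 1.77 ± 0.13, with a difference of -0.38 ± 0.17 (adjusted p = 0.11). Snrnp200, a helicase of the spliceosome, was among the 11 shared rises with a smaller late effect. It was at 216 and 188 against 283 and 272 CPM late and at 181 and 181 against 415 and 469.9 CPM early, with effects of 0.45 ± 0.13 and 1.29 ± 0.14. The difference of -0.84 ± 0.19 (adjusted p = 0.0038) fell short of a call by totals alone (-0.42, adjusted p = 0.09). The late call was lost without p53KO 8W replicate 2 (0.35, adjusted p = 0.09) and without DKO 8W replicate 2 (0.42, adjusted p = 0.058). Ppp1r3b, a glycogen-targeting phosphatase subunit, was among the 14 shared falls with a smaller late effect, at 146 and 166 against 132 and 109 CPM late and 366 and 404 against 150.2 and 149.7 CPM early. In Ppp1r3b the deleted groups lay close together and the control groups apart, by 1.30 (adjusted p = 5e-06).

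Early-only changes were few, and many of them went with a different level in the 2 controls. Of the 175 early-only rises, 52 were lower in p53KO TAM than in p53KO 8W (29.7% against 8.22% of all genes), and of the 141 early-only falls, 63 were higher there (44.7% against 7.55%). The control levels enter the calls that define these classes, so an excess over all genes is partly built into the sorting. The named gene 1810055G02Rik was at 85.0 and 92.2 against 82.2 and 79.6 CPM late and at 14.6 and 17.5 against 76.8 and 69.1 CPM early. The one low group of these 4 was p53KO TAM, and the early effect was 2.19 ± 0.18 (adjusted p = 7e-07). In the 7-week livers with intact p53, 1810055G02Rik was at 19.9 and 30.9 CPM in floxed controls and 59.5 and 51.9 CPM with Alb-Cre. It was thus also low in those controls and higher with the deletion, by 1.12 (edgeR, adjusted p = 0.0004). Gm4841 and Extl1, by contrast, were higher in DKO TAM than in any other group. Gm4841 was at 21.0 and 16.3 against 14.2 and 12 CPM late and at 13.1 and 16.9 against 49.7 and 38.8 CPM early (early effect 1.58 ± 0.26, adjusted p = 0.0011, difference -2.10 ± 0.37). Extl1, a glycosyltransferase-like gene, was at 3.24 and 6.01 against 3.14 and 2.14 CPM late and at 3.79 and 2.30 against 9.69 and 12.6 CPM early (early effect 1.8 ± 0.37, adjusted p = 0.0031). Without genes called between the controls, 122 early-only rises and 76 early-only falls were left.

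Sex-biased liver genes showed how much the control groups differed, although the Y-linked genes mark all 8 livers as male. Male-biased genes, maintained in liver by pulsed growth hormone, fell late for 21 of 21 (median -6.40, or -5.58 with genes at 0 set to their bound) and early for 10, while 2 rose early. Of these 21, 20 were already lower in p53KO TAM than in p53KO 8W (median -3.27). Female-biased genes rose late for 10 of 19 and fell early for 7, and 12 of 19 were higher in p53KO TAM (median 3.27). Slco1a1, a male-biased organic anion transporter, was at 1712 and 1953 against 70.8 and 79.1 CPM late and at 344 and 431 against 104 and 85.5 CPM early. The deleted groups were alike and low, and the difference of -2.58 ± 0.25 (adjusted p = 4.1e-06) stands beside a control difference of -2.24. Cux2, a female-biased transcription factor, was at 0.854 and 0.643 against 1.61 and 1.37 CPM late and at 8.89 and 8.14 against 0.312 and 0.501 CPM early. The one high group was p53KO TAM (early effect -4.36 ± 0.45, difference 5.32 ± 0.70, adjusted p = 6e-05). Cyp17a1, a steroid hydroxylase, was likewise at 132 and 129.9 CPM in p53KO TAM and between 4.83 and 18.9 CPM in the other 6 libraries. Cyp2b9, a female-biased P450, was at 0.854 and 0.214 CPM in p53KO 8W and between 63.8 and 180.5 CPM in the other 6 libraries. In the 7-week livers with intact p53, Cyp2b9 was likewise low in floxed controls, at 1.81 and 0.345 CPM. With Alb-Cre it was at 187 and 130 CPM there, higher by 7.30 (edgeR, adjusted p = 0.00024). The age of the tamoxifen-treated mice and the tamoxifen itself cannot be told apart as accompaniments of these control values.

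Over all genes, p53KO TAM and p53KO 8W differed for 2159 genes (15.8%), with 1034 (7.55%) higher and 1125 (8.22%) lower. Late-only rises were higher in p53KO TAM for 346 of 1374 (25.2%) and lower for 4. Late-only falls were lower there for 490 of 1266 (38.7%) and higher for 12. Each control is subtracted within its own arm, so a gap between the 2 controls enters the late minus early difference by construction. Dropping every gene called between the controls left 1024 late-only rises (74.5%), 764 late-only falls (60.4%), 543 shared rises (89.2%) and 683 shared falls (72.4%). The opposite classes shrank most, to 32 of 97 (33.0%) and 36 of 107 (33.6%).

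The 4 libraries from 7-week livers with intact p53, which share no sample with either arm, gave a separate readout of the classes. In these, Gdown1 flox/flox with Alb-Cre (KO) was compared with Gdown1 flox/flox (FF), 2 libraries each. In KO 947 genes (6.92%) were higher and 1079 (7.88%) lower, 14.8% in all. The comparison was run on the TMM scale alone, with factors of 1.07 and 1.02 in KO against 0.897 and 0.855 in FF. Of the shared rises, 271 (44.5%) were also higher in KO, and of the shared falls, 507 (53.7%) were lower, with medians of 0.79 and -0.56 beside 0.02 over all genes. Of the late-only rises 138 (10%) were higher in KO (median 0.23), and of the late-only falls 216 (17.1%) were lower (median -0.15). Of the early-only rises 44 (25.1%) were higher (median 0.30), and of the early-only falls 25 (17.7%) were lower (median -0.21). Of the genes that rose early and fell late, 15 (15.5%) were higher and 10 (10.3%) lower in KO. Of those that fell early and rose late, 12 (11.2%) were higher and 8 (7.48%) lower. Both opposite classes had medians close to that of all genes, at 0.12 and 0.04. The KO values of single genes showed the same ordering in part. Polr2a was higher in KO by 1.78 (adjusted p = 1.6e-07) and Alb lower by 1.01 (adjusted p = 0.00093), while Smc4 (-0.05), Mcm6 (0.12) and Nr1h4 (0.12) were not called. Top2a was higher in KO by 1.63 (adjusted p = 0.00011), and 20 of the 40 mitosis genes rose there.

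**Figure D5:**
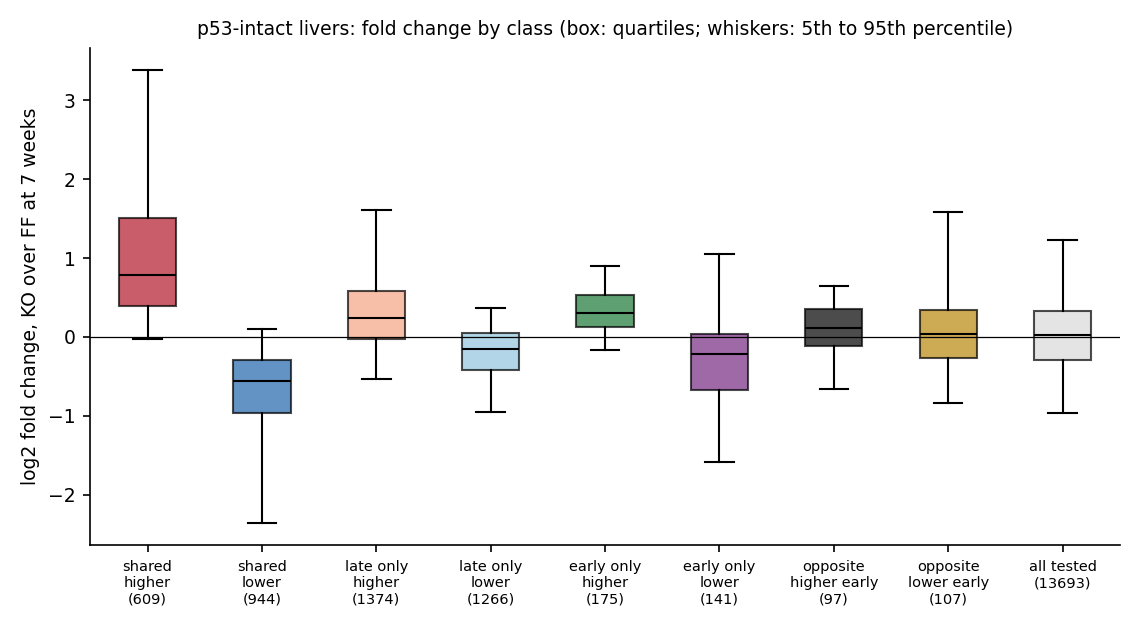
Log2 difference KO minus FF at 7 weeks with intact p53 (y axis) for the genes of each class (x axis), with boxes at the quartiles, a line at the median and whiskers at the 5th and 95th percentiles. The shared rises have a median of 0.79 and the shared falls one of -0.56, and the medians of the late-only classes are 0.23 and -0.15.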

How the data were processed

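Each library of total liver RNA (SMARTer Stranded Total RNA kit) has a deposited table of raw counts per gene, which the authors made with CASAVA 1.82, HISAT2 and featureCounts on mm10 (GRCm38), per the submitters' processing notes. The program line in the headers of the 4 tables from 7-week livers gives featureCounts 1.6.4 with no option for strand, read pairs or multiply mapped reads, and for the other 8 tables such options are not given in the sources used here. Overlapping and near-identical genes may therefore share reads. The tables list 23420 genes, and 13693 passed edgeR's filterByExpr with a minimum count of 10 (between 99.8% and 99.9% of counts).

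All 12 libraries were fitted as 6 group means (6 residual degrees of freedom, a common dispersion giving a coefficient of variation of 0.124) with TMM scaling and edgeR 4.0.16 quasi-likelihood F tests in R 4.3.3. P-values were adjusted by Benjamini-Hochberg over all 13693 genes, at 0.05. Scripts were tested on simulated data. Depth set the precision, with 3 counts between 0.254 and 0.643 CPM. Replicate libraries differed by more than sampling noise. Alternatives were other scalings, filters, DESeq2 1.42.0, limma-voom (limma 3.58.1), fits on 8 libraries, a replicate block, single libraries left out, a 1.5-fold minimum and a fold-based class rule. Replicate numbers did not pair the libraries.

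The members and gene lists were chosen with earlier results of these data known. Named genes were up to 6 per class, with at least 5 CPM in 1 group and no overlap of groups in each called effect. They were ranked by the difference (shared classes by the smaller effect). Up to 4 per list with the smallest p for the difference were added, with Polr2m, Trp53, Alb and Polr2a. Other names (Igf2, H19, Cd163, Acot2) were chosen after their values were seen, and marker genes served as checks of cell type. Promoter sequences are from RefSeq (GRCm38.p6), found for 10466 of 13067 genes. Some results are not reported here.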

Additional observations from a re-analysis of the deposited data

Results flagged for a closer look

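The long-standing and the recent deletion moved 97 genes in opposite directions with an early rise and a late fall, and 107 with an early fall and a late rise, each with the difference called by edgeR's test. Of the first group 64 (66.0%) were lower in p53KO TAM than in p53KO 8W, and of the second 71 (66.4%) were higher there, against 8.22% and 7.55% of all genes. Because the control levels enter the calls that define both groups, an excess over all genes is partly built in. The 6 genes of each group with the largest difference follow, as late minus early log2 values.

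Among those with an early rise and a late fall, Bhlhe41, a clock repressor, had -3.73, and its early call was lost without DKO TAM replicate 1 (1.21, adjusted p = 0.16), without either p53KO TAM library (1.94 and 1.88) and with limma-voom (1.73). Eif4ebp3, an inhibitor of translation initiation, had -3.41, with 24.2 and 26.4 against 4.92 and 7.19 CPM late and 9.47 and 10.2 against 21.1 and 29.0 CPM early. Slc22a4, a carnitine transporter, had -3.36, and its late call was lost with library totals alone (-0.32), with DESeq2 (-1.07) and without p53KO 8W replicate 2 (-0.96) or DKO 8W replicate 2 (-0.98). Cyp2d9, a male-biased P450, had -3.10, with 379 and 462 against 129.5 and 107 CPM late and 98.9 and 105 against 307 and 186 CPM early. The unnamed gene 1600002H07Rik had -2.80, and its late fall of 0.82 was -0.05 with library totals alone (adjusted p = 0.79). Slc17a8, a vesicular glutamate transporter, had -2.77, and its early call was lost without any 1 of the 4 tamoxifen libraries (values from 1.13 to 1.42) and with limma-voom (1.22).

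Among those with an early fall and a late rise, Slc34a2, a phosphate transporter, had 7.58, with 0.512 and 0.643 against 20.4 and 10.9 CPM late and 429 and 357 against 45.5 and 64.0 CPM early. Prtn3, a granulocyte protease with no count in p53KO 8W, had a fitted value of 7.38 that depends on the prior count, and it was at least 1.49-fold higher late (3 counts over the group). Its late call was lost under DESeq2, limma-voom, the replicate block (4.67, adjusted p = 0.072) and 6 of the 8 omissions of a library. Isyna1, of inositol synthesis, had 5.25, with 2.05 and 2.57 against 17.7 and 19.1 CPM late and 154 and 159 against 22.9 and 43.4 CPM early. Hapln1, a matrix linker protein, had 4.78, with 2.73 and 2.15 against 10.9 and 9.50 CPM late and 5.54 and 6.05 against 0.938 and 0.751 CPM early, and no called control difference (1.22, adjusted p = 0.053). Sytl5, a vesicle trafficking gene, had 4.73, and its early call was lost without p53KO TAM replicate 1 (-1.85, adjusted p = 0.056) or DKO TAM replicate 1 (-1.31). Vldlr, a lipoprotein receptor, had 4.36, and its early call was lost without p53KO TAM replicate 1 (-1.23, adjusted p = 0.088).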

How the results depend on the processing

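Scaling moved most counts. Library totals alone gave 8823 higher and 959 lower late calls, 4346 and 586 early, 3376 and 668 in the difference, 3587 and 305 shared, 2418 and 287 late-only and 78 early-only lower genes. Upper quartile scaling gave 1158 lower differences, 709 late-only lower and 113 early-only higher genes. DESeq2 gave 777 early rises, 385 shared rises, 106 early-only rises and 64 genes with an early rise and a late fall. A minimum 1.5-fold difference left 1007 higher and 596 lower, and fold-based classes left 321 and 286 shared, 804 and 500 late-only and 26 and 46 early-only genes. Why these counts moved was not tested. Leaving out single libraries, with the lone sample assumed to vary like the other groups, gave from 2659 to 3579 higher and 2718 to 3584 lower late, 468 to 1274 and 720 to 1431 early, and 1210 to 1641 and 1234 to 1825 in the difference. The classes ranged from 301 to 540 and 528 to 910 shared, 987 to 1335 and 792 to 1344 late-only, 60 to 177 and 73 to 150 early-only, and 33 to 124 and 57 to 96 opposite. The lowest early, shared, early-only and opposite counts came without p53KO TAM replicate 1, and the lowest late-only lower count without DKO 8W replicate 3. The replicate block gave 1745 higher and 1830 lower differences, and same-numbered libraries deviated with correlations of -0.07 (8W), 0.11 (7W) and -0.01 (TAM), so the numbers do not pair the libraries. Of 176 named genes with a called difference none reversed, 16 lost the call under a scaling and 41 without 1 library. Differences without a call changed sign for Gpr110 (0.024), Polr2m (0.077), Polr2a (0.039) and Rpl13a (0.0074) with library totals alone, for Hrasls (-0.11) and Nptx2 (0.057) with DESeq2, and for Hrasls (-0.65), Nptx2 (0.78) and Slc35f2 (0.28) with limma-voom. With single libraries left out, other uncalled differences spanned 0. They ran from -1.43 to 1.81 for Hrasls, -1.57 to 3.66 for Pkp1, -2.17 to 1.57 for Nptx2, -3.18 to 3.55 for Slc35f2, -1.07 to 0.28 for Gpr110, -2.21 to 4.23 for Clec2h and -0.10 to 0.19 for Alb.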

Other observations

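Interferon-response genes mostly rose where they were called late and fell where they were called early. Of 28 tested, 13 rose and 2 fell late (median 0.61) and 1 rose and 6 fell early (median -0.35, or 0.00 with library totals alone), and 11 had a higher and 1 a lower late minus early value. Of these genes, 3 fell early and rose late, and 10 were called in neither arm. With library totals alone 24 rose and none fell late, and 1 rose and 4 fell early. The 6 early falls became 3 without p53KO TAM replicate 1 and 2 without DKO TAM replicate 2. The controls differed for 1 gene in each direction. Ifit1, an RNA-binding antiviral protein, was at 30.9 and 31.3 against 55.7 and 53.6 CPM late and at 47.2 and 31.5 against 19.7 and 15.0 CPM early. It rose late by 0.81 ± 0.17 and fell early by 1.19, with a difference of 2.0 ± 0.25 (edgeR, adjusted p = 3.9e-05), and it was lower by 2.01 in KO livers with intact p53. Ifi44 had 0.97 ± 0.19 late and -0.91 ± 0.20 early, the latter lost without p53KO TAM replicate 1 (-0.85, adjusted p = 0.052) or DKO TAM replicate 2 (-0.73, adjusted p = 0.057).

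Targets of the oxidative stress factor NRF2 rose for 12 and fell for 4 of 22 late, and none rose and 3 fell early (5 rose with library totals alone). Hmox1, haem oxygenase, was at 15.9 and 12.7 against 55.1 and 67.6 CPM late and at 32.2 and 26.5 against 21.9 and 25.8 CPM early, a difference of 2.40 ± 0.27 (adjusted p = 1.8e-05) beside a control difference of 1.04. G6pdx, which feeds NADPH to antioxidant enzymes, was higher late by 2.49 ± 0.19 and had 0.53 ± 0.19 early. Chemokines and inflammatory signals rose for 12 of 17 late and 2 early. Vcam1, a leukocyte adhesion molecule, was at 32.1 and 33.0 against 215 and 240.2 CPM late and at 56.1 and 50.3 against 55.5 and 44.2 CPM early, a difference of 2.90 ± 0.19 (adjusted p = 6.1e-07). YAP targets rose for 8 of 18 late and 2 early, or for 16 and 4 with library totals alone. Axl, a receptor tyrosine kinase among them, had a difference of 2.01 ± 0.22. Lymphocyte and granulocyte markers rose for 4 of the 10 tested late and for none early.

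Lipid synthesis fell in both arms. Cholesterol synthesis genes fell for 22 of 24 late and 11 early, and fatty acid and triglyceride synthesis genes for 18 of 24 late and 12 early, with 11 shared falls on each list. Library totals alone gave 15 late and 7 early falls on the first list and 13 and 9 on the second. The second list then had 5 late and 4 early rises, and the first 1 late rise. Ribosomal protein genes fell for 20 of 40 late and 11 early, with 2 lower differences, but library totals alone gave 17 late rises and no late fall. Targets of p53, measured without p53, rose for 12 and fell for 4 of 28 late and rose for 4 and fell for 1 early, with 3 higher and 2 lower differences. Cdkn1a, which encodes p21, was named after its values were seen. It was at 0 and 0.214 against 10.6 and 31.9 CPM late and at 3.93 and 6.47 against 4.06 and 19 CPM early. Its 498 late counts against 1 make it 223-fold higher (counting interval 39.8 to 8818, edgeR adjusted p = 0.013), a call lost without p53KO 8W replicate 1 (adjusted p = 0.096) or 2 (adjusted p = 0.066). The early groups overlapped. The late minus early difference of Cdkn1a was not called (adjusted p = 0.12), but it was with DESeq2 (adjusted p = 0.0032), with the replicate block (adjusted p = 0.00013) and without DKO TAM replicate 2 (adjusted p = 0.026). Unfolded protein and integrated stress genes fell for 16 of 28 late and 13 early and were higher in p53KO TAM than in p53KO 8W for 15 of 28. With library totals alone 11 of them rose and 2 fell late, and 5 fell early, and the early falls numbered 8 without p53KO TAM replicate 1 and 7 without DKO TAM replicate 1. Atf5, a stress-response factor on that list, was at 113 and 116 against 60.0 and 65.3 CPM late and at 425 and 399 against 189 and 202 CPM early. The controls of Atf5 differed by 1.85, while the late minus early difference was 0.21 ± 0.19. Its late fall was -0.10 with library totals alone (adjusted p = 0.50). Acute phase genes were higher in p53KO TAM for 10 of 22, with 2 higher and 7 lower late and 2 lower early (3 and 3 late, and 3 higher and 1 lower early, with library totals alone). Immediate early genes rose for 9 and fell for 7 of 25 late and rose for 1 and fell for 1 early (12 and 4, and 5 and 0, with library totals alone). Clock genes fell for 11 of 20 late and 4 early, and 10 of 20 were lower and 4 higher in p53KO TAM. With library totals alone 6 rose and 5 fell late, and 8 rose and none fell early, and without DKO TAM replicate 1 no clock gene was called early. The labels give no time of day. Both erythroid transcripts tested fell late and neither was called early.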
